A study of Mus musculus with 6 samples.

Results

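The 10 genes described here, Slc2a1, Slc2a4, Hk2, Pfkm, Aldoa, Pgam2, Eno3, Ldhb, Pygm and Gys1, encode glucose transporters, enzymes of glycolysis and the pair of enzymes that break down and build glycogen in muscle. They were taken by name from a table of 44792 gene symbols, and all 10 were among the 14370 genes that passed a filter on low counts. RNA had been sequenced from the hearts of 3 mice carrying the cTnI R193H mutation and of 3 wild type mice, cTnI being cardiac troponin I, which holds the thin filament inhibited while calcium is low. All were C57BL/6 mice at 3 months of age that received no treatment, and the design text describes the 3 hearts of each group as biological repeats. Sex, zygosity and the way the mutation was introduced were not stated in the labels, and counts per gene do not show the changed base.

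Glucose enters heart muscle through facilitative transporters, of which the insulin-responsive GLUT4 and the basal GLUT1 are the main forms. It is then phosphorylated and either stored as glycogen or passed through glycolysis to pyruvate, which is oxidised in mitochondria or exchanged with lactate. The adult heart draws most of its energy from fatty acids and keeps glucose and glycogen as more quickly used fuels, with several steps carried by muscle isoenzymes.

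Libraries held between 14736067 and 21852210 counts. Levels are given as CPM, the library's counts scaled to a common total by the trimmed mean of M values (TMM), so that most genes centre on no difference between groups. The 10 ventricular cardiomyocyte markers of the list used were all expressed in every heart, and together they measured 51917 to 54938 CPM in R193H hearts against 56245 to 60050 CPM in wild type hearts, with 8 of 10 lower in R193H hearts and a median log2 fold change of -0.11. In tissue RNA, fewer cells of a type and less RNA per cell cannot be told apart. Of the 10 skeletal muscle markers, Myh4 had 0 counts in all hearts and Ckm, which heart muscle also expresses, gave nearly all of the summed 1617 to 1749 CPM in R193H hearts and 1863 to 1929 CPM in wild type hearts. The share of counts on mitochondrially encoded genes was 33.8% ± 2.52 in R193H hearts and 36.8% ± 0.0715 in wild type hearts (SD, n = 3 each).

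All 10 genes had a lower mean in R193H hearts, by between 0.10 (Aldoa) and 0.39 (Slc2a1) on the log2 scale, and their median log2 fold change was -0.19, against -0.00036 for all genes tested. A log2 fold change below 0 was found for 50.1% of all genes tested. None of the 10 passed edgeR's quasi-likelihood test with Benjamini-Hochberg adjustment over all genes at 0.05, where 0.00696% of genes tested, a single gene outside this group, did. Their adjusted p lay between 0.794 and 0.901. At an unadjusted p under 0.05, 3 of the 10 were lower (Pygm, Eno3 and Gys1), beside 2.51% of all genes tested that were lower at that level and 5.73% that were so in either direction. By DESeq2 and by limma-voom, 0 of the 10 passed as well. For 5 of the 10 (Hk2, Aldoa, Pgam2, Pygm and Gys1), all 3 R193H hearts lay below all 3 wild type hearts, as for 5.8% of all genes tested, and for 0 of the 10 they lay above, as for 6.02%. With library totals as the only scaling, the median of all genes was 0.13, the median of the 10 was -0.066, which is 0.19 below that of all genes, Aldoa turned to 0.026, and 0 of the 10 were separated, beside 1.36% of genes tested. Leaving out wild type replicate 2 brought the median of the 10 to -0.14.

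The bases before the start sites are shown for Pygm, Gys1 and Eno3, the 3 genes with the lowest unadjusted p. Each run holds the 250 bases before the RefSeq start site on GRCm38.p6, read 5′ to 3′ on the gene's own strand, which is the plus strand for all 3. They lie at chr19:6384158-6384407 (Pygm), chr7:45434589-45434838 (Gys1) and chr11:70656926-70657175 (Eno3). Capitals mark matches on either strand to ACGTG (the core that hypoxia-inducible factors bind), GGGCGG (a GC box) or AGGTCA (a core that nuclear receptors bind). They also mark CTA and TAG with 4 bases of any kind between them. This last pattern is looser than a MEF2 site, so MEF2 sites as such were not searched for.
Pygm: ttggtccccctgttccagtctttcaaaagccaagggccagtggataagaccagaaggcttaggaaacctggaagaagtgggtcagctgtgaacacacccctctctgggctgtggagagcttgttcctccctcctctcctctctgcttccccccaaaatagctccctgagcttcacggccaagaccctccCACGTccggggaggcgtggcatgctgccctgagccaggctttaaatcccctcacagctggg
Gys1: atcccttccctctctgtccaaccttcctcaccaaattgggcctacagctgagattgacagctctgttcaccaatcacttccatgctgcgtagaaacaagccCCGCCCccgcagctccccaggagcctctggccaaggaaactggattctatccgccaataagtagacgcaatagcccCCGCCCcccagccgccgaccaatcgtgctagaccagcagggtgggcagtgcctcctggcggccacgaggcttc
Eno3: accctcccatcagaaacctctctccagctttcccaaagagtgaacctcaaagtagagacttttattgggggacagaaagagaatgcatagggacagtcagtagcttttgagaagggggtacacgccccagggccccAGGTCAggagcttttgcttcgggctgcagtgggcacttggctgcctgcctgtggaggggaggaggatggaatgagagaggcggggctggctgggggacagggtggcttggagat
The Pygm window held 1 match to ACGTG, read on the minus strand as CACGT and beginning 61 bases before the start site. The Gys1 window held 2 GC boxes on the minus strand, beginning 149 and 73 bases before the start site, and the Eno3 window 1 AGGTCA beginning 114 bases before it. These 3 windows share none of the 4 motifs. RefSeq promoters were available for 9 of the 10 genes, as 14 windows. ACGTG was present for 5 of the 9 genes (Aldoa, Hk2, Pfkm, Pygm and Slc2a1) and in 7 of 14 windows, of which 2 overlapping windows of Aldoa hold the same match, against 16.6% of all 32851 windows of this length. GGGCGG was present in 5 of the 14 windows (4 of the 9 genes), AGGTCA in 5 (4 of the 9 genes) and the CTA and TAG pattern in 1, that of Ldhb. Here too the 2 overlapping windows of Aldoa hold the same AGGTCA match and share GGGCGG matches. Among all 32851 windows these motifs were present in 10756 (32.7%), 4607 and 1052 (3.2%). Such matches are descriptions of the letters and not measured binding sites.

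Per kilobase of the principal transcript in GENCODE M21, the 10 genes spanned more than 3 orders of magnitude in level in the heart. Aldoa stood highest, at 1297 ± 24.2 CPM per kilobase in R193H and 1391 ± 73.6 in wild type hearts (SD, n = 3 each), followed by Ldhb, at 904 ± 85.6 and 1018 ± 58.9. Next in order were Eno3, Pgam2 and Pygm, with means of 480.5, 388 and 334 CPM per kilobase in R193H hearts and 574, 443 and 392 in wild type hearts. Pgam2 and Pygm overlapped across the 6 hearts, while the other neighbours in the order did not, with the narrowest gap between Eno3 (lowest heart 448) and Pgam2 (highest heart 446). Slc2a4 followed at 134 and 148 CPM per kilobase in R193H and wild type hearts, Hk2 at 60.4 and 66.7, and Gys1 at 29.7 and 35.2. Pfkm and Slc2a1 stood lowest, at 6.48 and 0.621 CPM per kilobase in R193H hearts and 7.41 and 0.813 in wild type hearts. The order of the 10 was the same in both genotypes. With the summed exon length of the gene in place of the transcript, Ldhb stood above Aldoa, whose gene has several alternative first exons.

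**Figure D1:**
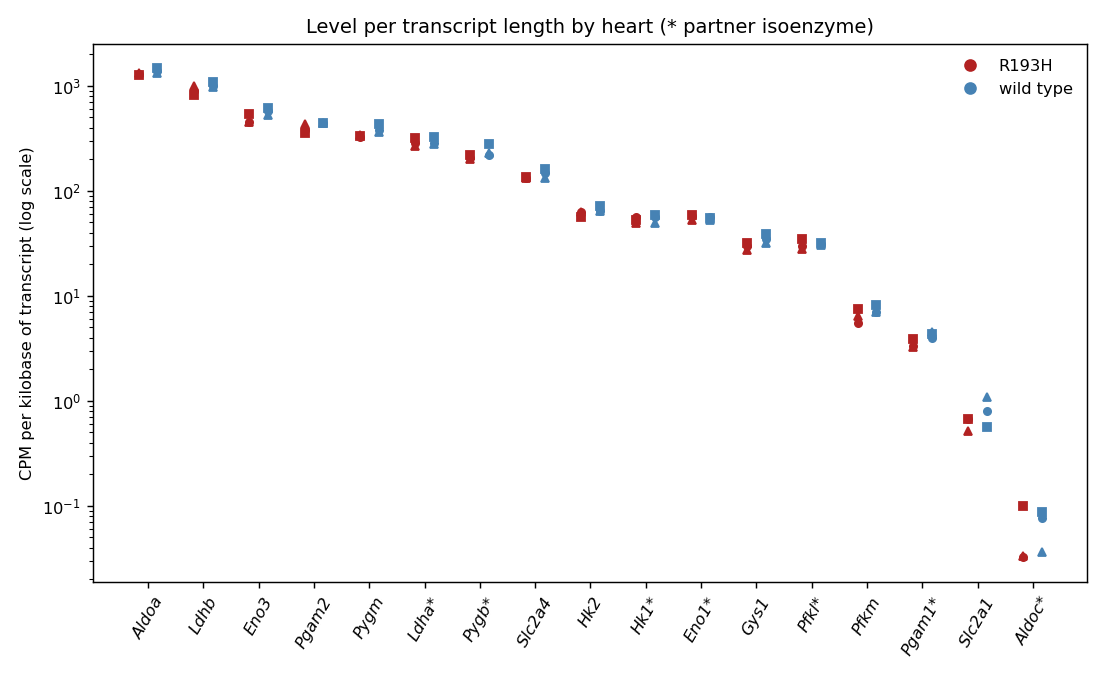
Level of each gene and of its partner isoenzymes (marked by an asterisk) in CPM per kilobase of transcript on a log scale, 1 symbol per heart (circle, square and triangle for replicates 1, 2 and 3), R193H left of wild type. Aldoa stands highest at 1297 (R193H) and 1391 (wild type), Pfkm lies below its partner Pfkl, and Slc2a1 is at most 1.08 in every heart.

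Slc2a4 encodes GLUT4, the transporter that insulin and contraction bring to the surface of muscle cells (GRCm38 chromosome 11, 69942539 to 69948188, 11 exons in the principal transcript). It measured 336, 340.2 and 336 CPM in R193H replicates 1, 2 and 3, and 376, 405 and 337 CPM in wild type replicates 1, 2 and 3. R193H hearts were close to each other, with a coefficient of variation of 0.751%, and wild type replicate 3 lay among them, so the groups overlapped. Its log2 fold change was -0.14 (SE 0.088, edgeR adjusted p = 0.898), with a 95% interval of -0.34 to 0.053, and it was -0.079 without wild type replicate 2. Slc2a1 encodes GLUT1, the basal transporter of many cell types (chromosome 4, 119108711 to 119137983, 10 exons). It had 49, 48 and 36 counts in R193H hearts and 37, 30 and 70 in wild type hearts, or 2.20, 2.20 and 1.68 CPM against 2.63, 1.82 and 3.51 CPM. Wild type hearts held both its highest value and a value below 2 of the 3 R193H hearts, and at these counts the 95% interval of its log2 fold change, -1.03 to 0.24, was the widest of the 10. The fold change itself was -0.39 (SE 0.29, edgeR adjusted p = 0.900). It was -0.13 when wild type replicate 3 was left out and -0.61 when wild type replicate 2 was. Summed red cell markers also varied among wild type hearts, at 3137, 274 and 3012 CPM in replicates 1, 2 and 3, against 496 to 650.4 CPM in R193H hearts. Their part in the Slc2a1 values was not tested.

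Hk2 encodes hexokinase II, the insulin-regulated enzyme that traps glucose as glucose-6-phosphate (chromosome 6, 82725025 to 82774454, 18 exons). R193H hearts measured 344, 312 and 344 CPM, and wild type hearts 358, 391 and 355 CPM. All 3 R193H hearts were lower, by a narrow margin in replicates 1 and 3, with a log2 fold change of -0.14 (SE 0.084, edgeR adjusted p = 0.892, 95% interval -0.33 to 0.044). Pfkm encodes the muscle subunit of phosphofructokinase, the committed step of glycolysis (chromosome 15, 98092589 to 98132451, 23 exons). It measured 15.8, 21.5 and 18.6 CPM in R193H hearts and 20.3, 23.8 and 19.99 CPM in wild type hearts. R193H replicate 2 was within the wild type range. The log2 fold change was -0.19 (SE 0.13, edgeR adjusted p = 0.900), -0.088 without R193H replicate 1 and -0.31 without R193H replicate 2. Of its 3340 exon bases, 359 (10.7%) are shared with the genes Gm26513 and Senp1. The treatment of reads over shared bases, like the rest of the counting, was not stated in the labels, so its level is uncertain.

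Aldoa encodes aldolase A, the muscle form of the enzyme that splits fructose bisphosphate (chromosome 7, 126795234 to 126800751). At 1969, 1919.9 and 1992 CPM in R193H hearts, against 2098, 2215 and 1993 CPM in wild type hearts, it had the highest level of the 10 genes and the smallest difference. R193H replicate 3 and wild type replicate 3 differed by less than 2 CPM, and the log2 fold change of -0.10 (SE 0.080, edgeR adjusted p = 0.901) had a 95% interval of -0.28 to 0.078. It was -0.063 without wild type replicate 2.

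Pgam2, the muscle phosphoglycerate mutase (chromosome 11, 5801640 to 5803733, 3 exons), measured 319, 297 and 362 CPM in R193H hearts and 375, 374 and 369 CPM in wild type hearts. Wild type hearts varied by 0.869% and R193H hearts by 10.2% (coefficients of variation), and R193H replicate 3 lay just below the wild type hearts. The log2 fold change was -0.19 (SE 0.091, edgeR adjusted p = 0.863, 95% interval -0.40 to 0.0092), and -0.13 without R193H replicate 2. Eno3, the muscle enolase that yields phosphoenolpyruvate (chromosome 11, 70657202 to 70662513, 12 exons), measured 700.4, 842 and 712 CPM in R193H hearts, against 899.7, 961 and 831 CPM in wild type hearts. R193H replicate 2 was above wild type replicate 3, so the groups overlapped. Its log2 fold change of -0.26 (SE 0.0997, unadjusted p = 0.0288, edgeR adjusted p = 0.794) had a 95% interval of -0.48 to -0.033.

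Ldhb encodes the heart-type subunit of lactate dehydrogenase, which favours the oxidation of lactate to pyruvate (chromosome 6, 142490249 to 142507957, 8 exons). R193H hearts measured 1170.2, 1072 and 1295 CPM and wild type hearts 1292, 1416 and 1275 CPM. R193H replicate 3 lay above 2 wild type hearts, and the log2 fold change was -0.17 (SE 0.095, edgeR adjusted p = 0.890, 95% interval -0.38 to 0.040). Without R193H replicate 2 it was -0.11.

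**Figure D2:**
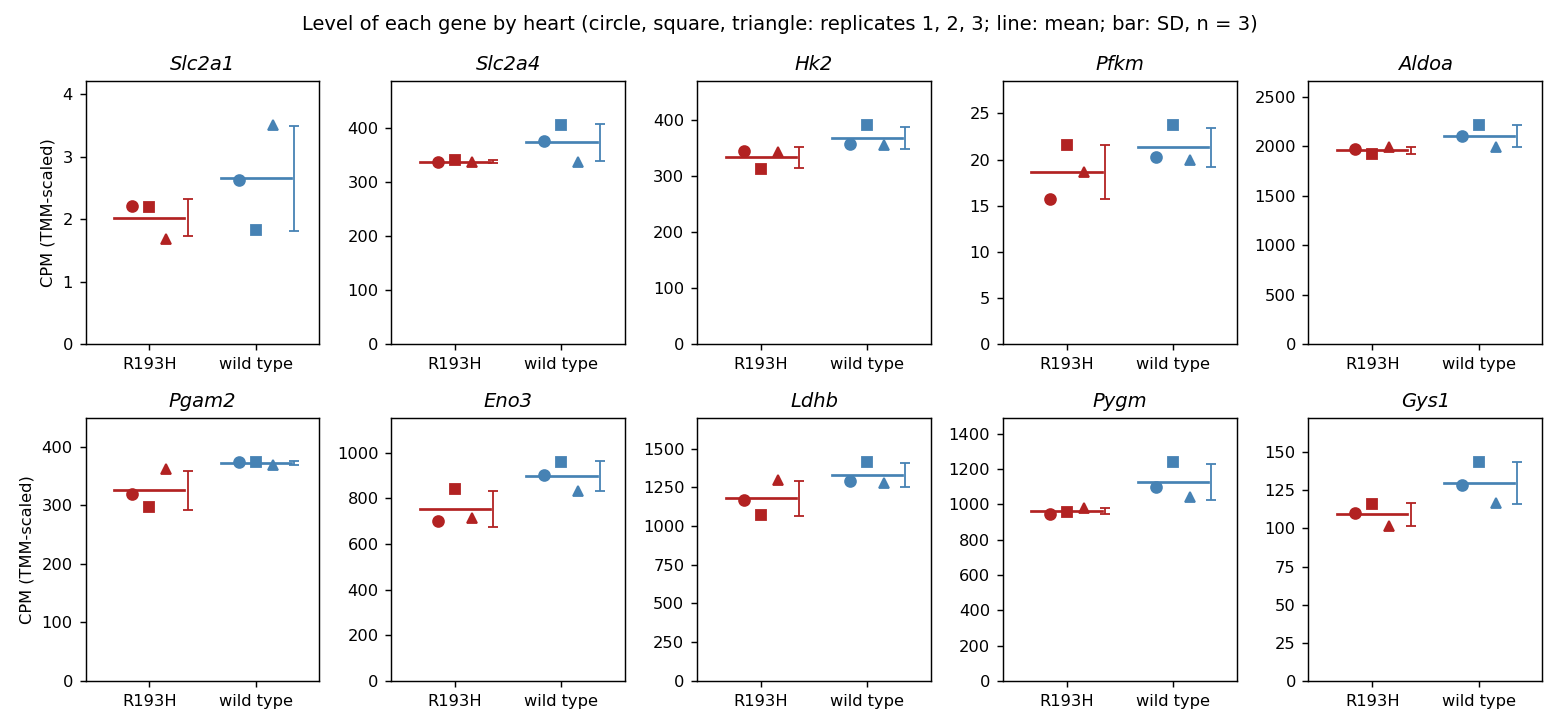
CPM of each of the 10 genes in every heart, with axes from 0, R193H left of wild type; symbols mark replicates 1, 2 and 3 (circle, square, triangle), lines the group mean and bars the SD (n = 3). R193H means are the lower in every panel, with the groups apart for Hk2, Aldoa, Pgam2, Pygm and Gys1 and overlapping for the other 5.

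Pygm encodes muscle glycogen phosphorylase, which releases glucose-1-phosphate from glycogen (chromosome 19, 6384399 to 6398459, 20 exons). It measured 944, 958 and 981 CPM in R193H hearts, against 1101, 1242 and 1041 CPM in wild type hearts. R193H hearts varied by 1.92% and wild type hearts by 9.17%, and the groups did not overlap. The log2 fold change was -0.23 (SE 0.089, unadjusted p = 0.0273, edgeR adjusted p = 0.794, 95% interval -0.43 to -0.032), the lowest unadjusted p of the 10 and number 490 of the 14370 genes tested in order of p. Gys1 encodes muscle glycogen synthase, the enzyme that lengthens glycogen chains (chromosome 7, 45434844 to 45456619, 16 exons). Its levels were 110.4, 115.97 and 101 CPM in R193H hearts and 128, 144 and 116.55 CPM in wild type hearts, so R193H replicate 2 and wild type replicate 3 all but touched. The log2 fold change was -0.25 (SE 0.096, unadjusted p = 0.0291, edgeR adjusted p = 0.796, 95% interval -0.46 to -0.031). Gys1 shares 310 of its 4789 exon bases with Ruvbl2 on the opposite strand, and the labels do not state whether the counting used strand. The log2 ratio of Gys1 to Pygm counts was -3.14 ± 0.120 in R193H and -3.12 ± 0.0313 in wild type hearts (SD, n = 3 each), a difference of -0.016 (two-sided exact permutation test, p = 1).

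**Figure D3:**
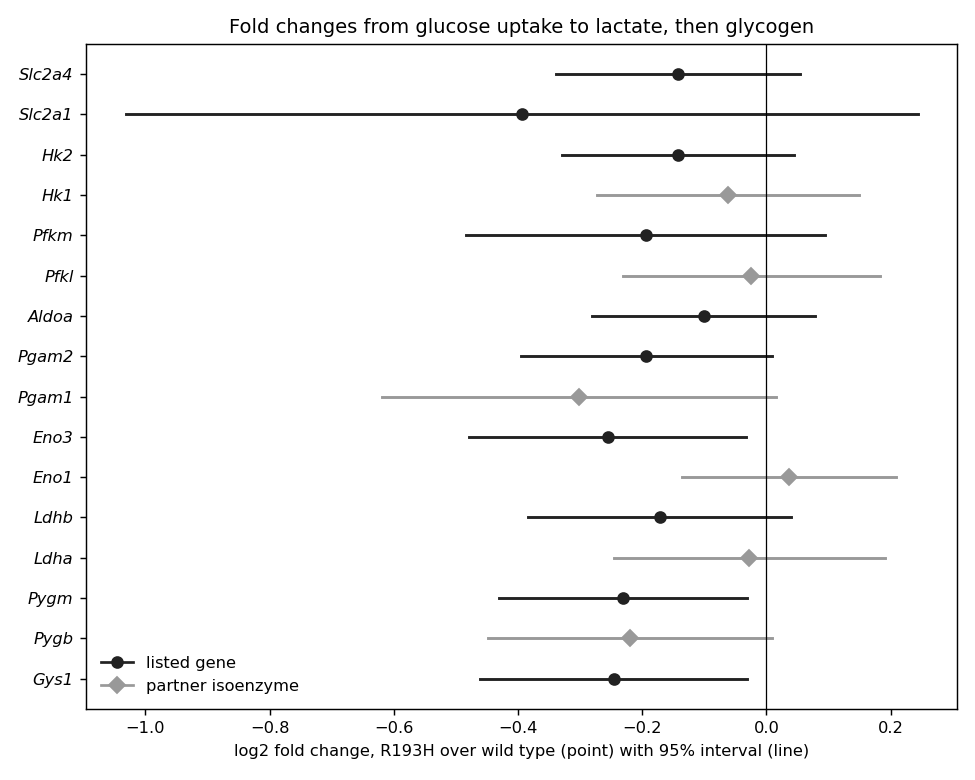
Log2 fold change of R193H over wild type hearts from edgeR (points) with its 95% interval (lines), for the listed genes (black circles) and their partner isoenzymes (grey diamonds), in the order of the pathway. Every listed gene lies below 0, and the intervals of Eno3, Pygm and Gys1 alone among them exclude 0 without adjustment for the 14370 genes tested.

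Each heart was set against the wild type mean of each gene. Medians of these deviations over the 10 genes were -0.22, -0.18 and -0.17 in R193H replicates 1, 2 and 3, and -0.0048, 0.098 and -0.083 in wild type replicates 1, 2 and 3, on the log2 scale. Wild type replicate 2 was the highest of the 6 hearts for 8 of the 10 genes, and no R193H heart was the highest for any. Among R193H hearts, the lowest value was in replicate 1 for 4 genes, in replicate 2 for 4 and in replicate 3 for 2. Hk2, Aldoa, Pgam2 and Ldhb were lowest in R193H replicate 2, whereas Eno3, Pfkm, Gys1 and, by a narrow margin, Slc2a4 were highest in that heart among the R193H hearts. The median coefficient of variation of the 10 genes was 8.12% in R193H and 8.20% in wild type hearts, against 11.6% and 10.5% over all genes tested.

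**Figure D4:**
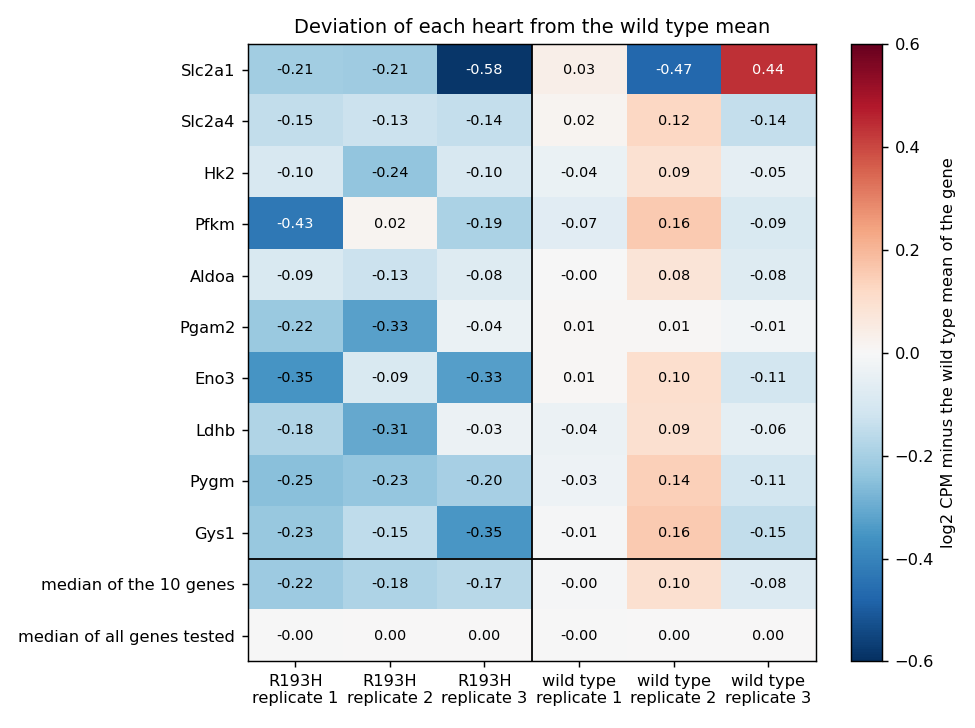
Log2 CPM of each gene in each heart minus the wild type mean of that gene, with R193H hearts left of wild type hearts and the medians of the 10 genes and of all genes tested in the bottom rows. R193H hearts are at -0.22, -0.18 and -0.17 in the median of the 10 genes, and wild type replicate 2 is at 0.098.

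The 10 genes were also set against the summed counts of the 10 ventricular cardiomyocyte markers within each library, a ratio that no library scaling changes. Among the 10 markers is Tnni3, the gene of cTnI itself, which was higher in all 3 R193H hearts (mean 3748 CPM in R193H and 3317 CPM in wild type hearts). The ratio without Tnni3 was not computed. Relative to the 10 markers together, 9 of the 10 genes were lower in R193H hearts, with Aldoa at 0.0055, and the median difference was -0.095 on the log2 scale. Pygm was at -0.12 and the only 1 of the 10 whose groups lay apart, as for 1.59% of all genes tested that were lower in this ratio (two-sided exact permutation test, p = 0.1, the smallest that 3 against 3 hearts allow). Gys1 and Eno3 stood at -0.14 and -0.15 (exact permutation p = 0.3 and 0.4). Slc2a4 and Hk2 were at -0.034 and -0.038. Macrophage markers summed to 183 to 251 CPM in R193H and 143 to 165 CPM in wild type hearts, with 6 of 6 tested markers higher. Fibroblast markers (7 of 7 higher in mean, median log2 fold change 0.22) summed to 1338, 2102 and 1405 CPM in R193H replicates 1, 2 and 3. Wild type hearts had sums of 1258 to 1495 CPM, so only R193H replicate 2 lay above the wild type range. Endothelial markers (7 of 7 higher, median 0.096) summed to 1643 to 1877 CPM in R193H and 1462 to 1865 CPM in wild type hearts. Atrial markers (4 of 4 tested lower) summed to 132 to 242 CPM in R193H and 80.7 to 679 CPM in wild type hearts. The part of these other cell types in the differences of the 10 genes was not tested.

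Muscle isoenzymes were then compared with their partners within each library, a pseudocount of 0.5 being added to each count. The 9 pairs include Gys1 against Pygm, given above, which are different enzymes and not isoenzymes. Eno3 against Eno1, the enolase of most tissues, was the only pair whose groups did not overlap: the log2 ratio was 2.59, 2.82 and 2.73 in R193H hearts and 2.98, 3.09 and 2.95 in wild type hearts. The difference was -0.29 (two-sided exact permutation test, p = 0.1, adjusted p = 0.9 over the 9 pairs, lower in 3 of 3 hearts), with Eno1 itself at 114 ± 6.29 CPM in R193H and 111 ± 3.45 CPM in wild type hearts (SD, n = 3 each). No pair could pass the threshold, since 3 against 3 hearts cannot give a p under 0.1. Ldhb exceeded Ldha, the muscle-type subunit, per kilobase by 3.10 times in R193H and 3.43 times in wild type hearts, and the difference of their log2 ratios was -0.15 (exact permutation p = 0.5), ranging from -0.28 to -0.013 with 1 heart left out. Hk2 exceeded Hk1 per kilobase by 1.15 and 1.21 times in R193H and wild type hearts. Pygm exceeded Pygb, the brain-type phosphorylase, by 1.61 and 1.62 times, with a difference of -0.014 in log2 ratio (exact permutation p = 0.8). Pygb itself measured 812 ± 38.2 CPM in R193H hearts and 945 ± 121 CPM in wild type hearts (log2 fold change -0.22, SE 0.10, edgeR adjusted p = 0.863), and its log2 fold change was -0.11 without wild type replicate 2. Pgam2 exceeded Pgam1 by 112 and 104 times and Slc2a4 exceeded Slc2a1 by 215 and 182 times, again per kilobase in R193H and wild type hearts. The ratio to Slc2a1 rests on 30 to 70 counts of that gene in a heart. Such a low level may depend on how reads were counted, so the size of this ratio is uncertain. Pfkm, by contrast, stood at 0.211 and 0.237 of the level of Pfkl, the liver-type subunit, per kilobase, an order that rests on the uncertain Pfkm level given above. The size of such per-kilobase ratios depends on the length used. With summed exon lengths, R193H hearts had Hk2 at 55.8 and Hk1 at 23.8 CPM per kilobase. Wild type hearts had 61.6 and 24.9. Aldoc, the brain-type aldolase, had 2 to 6 counts in a heart and was not tested. Eno1, Ldha and Pgam1 have processed pseudogenes that could take or add reads, so their levels are uncertain.

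Beyond the 10 genes, 109 further genes of glucose and glycogen handling were listed by step, and 108 of them were in the table. Of the 103 tested, 0 passed the threshold over all genes in edgeR, 70 had a lower and 33 a higher mean, and the median log2 fold change was -0.058. At an unadjusted p under 0.05, 11 were lower and 2 higher, beside 2.51% and 3.22% of all genes tested. The split by sign depended on the scaling: under library totals 32 of the 103 were lower and 71 higher, beside 3063 lower and 11307 higher of all genes tested, and the median was 0.067, against 0.13 for all genes. Of the 12 steps (the 10 genes included), 8 had a median below 0 that turned above 0 under library totals, namely hexokinases, upper glycolysis, lactate handling, pyruvate entry, glycogen synthesis, glycogen breakdown, insulin signalling and regulators. Relative to the median of all genes, 11 of the 12 step medians were lower under either scaling. A change of scaling moves all genes by nearly the same amount, so the second count adds no separate support. The counts and medians of the steps given next are those of TMM scaling.

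The other transporters included Slc2a12, an insulin-responsive transporter in muscle, at 5.22, 6.22 and 6.52 CPM in R193H hearts against 7.88, 8.24 and 7.36 CPM in wild type hearts, without overlap (log2 fold change -0.39, SE 0.15, edgeR adjusted p = 0.793). All 6 transporters tested, Slc2a1 and Slc2a4 among them, had lower means, with a median of -0.16. Slc2a3 and Slc2a8 were at -0.18 and -0.027, with SEs of 0.48 and 0.14. Among hexokinases, Hk3 of white blood cells stood at 0.82 (SE 0.44), at 0.41 without R193H replicate 1 and at 1.17 without R193H replicate 3. In upper glycolysis the median over 7 genes tested was -0.10, with Gpi1, which turns glucose-6-phosphate into fructose-6-phosphate, at -0.17 (SE 0.089) and Pfkp, the platelet-type phosphofructokinase subunit, at 0.13 (SE 0.092). They stood at -0.098 without wild type replicate 2 and at 0.058 without R193H replicate 1. In lower glycolysis 6 of 8 genes tested had lower means, with a median of -0.14, and the pyruvate kinase gene Pkm stood at -0.092 (SE 0.081). Gapdh, the glyceraldehyde-3-phosphate dehydrogenase often used as a reference gene, varied from 44.9 to 91.7 CPM in R193H hearts and from 5.51 to 52.7 CPM in wild type hearts. It has many processed pseudogenes, and the labels do not state how reads shared with them were counted, so its values are uncertain.

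Pfkfb3, 1 of the bifunctional enzymes that set the activator of phosphofructokinase and the inducible form in inflamed and proliferating cells, had the lowest unadjusted p of all listed genes. It measured 40.6, 30.9 and 30.0 CPM in R193H hearts and 21.2, 24.7 and 19.4 CPM in wild type hearts, so all 3 R193H hearts were higher. Its log2 fold change of 0.64 (SE 0.14, unadjusted p = 0.00113) missed the threshold in edgeR (adjusted p = 0.559) and passed it in DESeq2 (adjusted p = 0.0279) and in edgeR without the filter on low counts (adjusted p = 0.0185). Over the 15 alternatives its adjusted p was between 0.0185 and 0.998 and its log2 fold change between 0.48 and 0.76. Pfkfb1 and Pfkfb2, the forms typical of liver and muscle and of heart, stood at -0.30 (SE 0.20) and -0.37 (SE 0.27). With 1 heart left out they ranged from -0.56 to -0.13 and from -0.66 to -0.15. The 4 genes Pfkfb1 to Pfkfb4 had a median of -0.059. With Fbp2, a muscle fructose-1,6-bisphosphatase kept in the same list and named after its value was seen, the median of the 5 tested was 0.055, which is the value of Fbp2 itself. Macrophage markers, as given above, were also higher in R193H hearts, and their part in the Pfkfb3 value was not tested.

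Glycogen breakdown had 6 of 11 genes with a lower mean and a median of -0.018, which was -0.21 without R193H replicate 1 and 0.010 without R193H replicate 3. Phkb, a regulatory subunit of phosphorylase kinase, stood at -0.69 (SE 0.25) with a level of 1.48 CPM in R193H and 2.39 CPM in wild type hearts. Such a low level may depend on how reads were counted, so its value is uncertain. In glycogen synthesis 9 of 14 genes tested were lower, with a median of -0.047. Ppp1r3c, which targets a phosphatase to glycogen and activates glycogen synthase, was at 107, 77.2 and 115 CPM in R193H hearts and 124, 126 and 130.2 CPM in wild type hearts (log2 fold change -0.34, SE 0.13, edgeR adjusted p = 0.803, and -0.19 without R193H replicate 2). The synthase kinase gene Gsk3b stood at -0.13 (SE 0.093) and Epm2a, the glycogen phosphatase laforin, at 0.25 (SE 0.25). They stood at -0.052 without wild type replicate 1 and at 0.054 without R193H replicate 3.

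Lactate handling had 4 of 6 genes lower (median -0.089), with the lactate carrier genes Slc16a1 at -0.17 (SE 0.10) and Slc16a7 at 0.25 (SE 0.14) and their chaperone Bsg at -0.15 (SE 0.096). Genes of pyruvate entry into mitochondria had 12 of 14 lower means and a median of -0.071, against 3 of 14 and 0.052 under library totals. Pdpr, a regulatory subunit of pyruvate dehydrogenase phosphatase, stood at -0.22 (SE 0.089), the kinase gene Pdk2 at -0.21 (SE 0.12) and the dehydrogenase subunit gene Pdha1 at -0.13 (SE 0.084). Insulin signalling and transporter traffic had 14 of 16 lower means (median -0.072), against 4 of 16 (median 0.054) under library totals, led by the sorting receptor gene Sort1 (-1.58, SE 0.65, and -0.94 without wild type replicate 2, at 0.348 CPM in R193H and 1.07 CPM in wild type hearts) and the insulin receptor gene Insr (-0.32, SE 0.13, -0.20 without R193H replicate 2). Lnpep, an aminopeptidase that travels with GLUT4, stood at -0.20 (SE 0.097). Among subunits of AMP-activated kinase, the median of 7 was -0.12, with Prkab2 at -0.26 (SE 0.11), Prkab1 at -0.17 (SE 0.12) and Prkaa1 at 0.12 (SE 0.088). Without R193H replicate 2 the differences were smaller for Slc16a1 (-0.073), Bsg (-0.084), Pdha1 (-0.072), Lnpep (-0.10) and Prkab2 (-0.16), and Pdk2 was at -0.11 without wild type replicate 2 and Prkab1 at -0.079 without R193H replicate 1. Adjusted p of all genes in this paragraph was at least 0.816 in edgeR with all 6 hearts.

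Regulators of glucose genes had 9 of 15 lower means and a median of -0.051. Ppara, the fatty acid receptor that favours lipid over glucose use, measured 87.1, 69.9 and 69.2 CPM in R193H hearts and 89.1, 106 and 93.0 CPM in wild type hearts (log2 fold change -0.35, SE 0.11, edgeR adjusted p = 0.722), and its coactivator gene Ppargc1a stood at -0.36 (SE 0.14, -0.21 without R193H replicate 2). Myc, a growth factor-induced transcription factor, was at 5.26, 5.40 and 5.22 CPM in R193H hearts and 3.05, 3.21 and 4.31 CPM in wild type hearts, without overlap (log2 fold change 0.58, SE 0.18, edgeR adjusted p = 0.722).

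**Figure D5:**
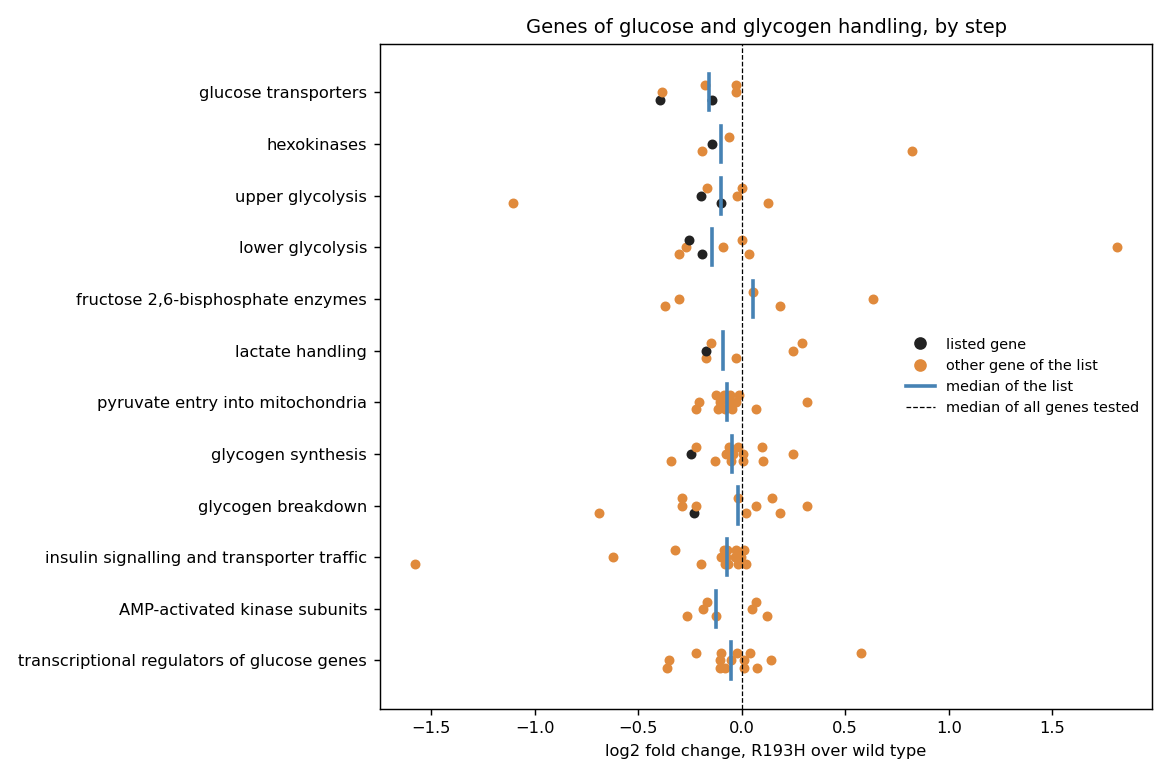
Log2 fold change of R193H over wild type hearts for every tested gene of the 12 steps of glucose and glycogen handling (points), with the 10 listed genes in black, the median of each step as a bar and the median of all genes tested as a dashed line. Medians run from -0.16 for glucose transporters to 0.055 for the step that holds Pfkfb3 (the point at 0.64) and Fbp2, whose value is that median, and 8 of the 12 medians turn from below to above 0 under library totals.

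The genes whose pattern over the 6 hearts was nearest to the mean of the 10 genes were sought among 7931 other genes with a mean of at least 10 CPM. Nearest were Vps26b, Zfand3, Dhrs4, Sdha and Cops8, with root mean square distances of 0.0216 to 0.0319 in log2 CPM centred over the hearts. Sdha, the flavoprotein subunit of succinate dehydrogenase, had a log2 fold change of -0.17. Among the 10 genes themselves, Pygm lay nearest to their mean, at 0.0548, and Slc2a1 farthest, at 0.32. These distances are given as a description.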

How the data were processed

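RNA of 6 hearts was measured by sequencing. The table the authors deposited holds raw counts, whole numbers for each gene symbol in each heart. HISAT2 2.0.4 and GRCm38 are named in the submitters' processing notes. How reads were counted (program, annotation, strand, multiple mapping) is not given in the sources used here.

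Columns were matched to hearts by sample titles and groups came from the genotype label. Hearts were numbered within a group by listing only, and numbers pair no hearts. No 2 libraries were alike within sampling noise (chi-square test of counts). At these depths a count of 0 allows up to 0.137 to 0.204 CPM (3 counts, counting error only).

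The main test was that of edgeR 4.0.16 in R 4.3.3 (filterByExpr, TMM, robust quasi-likelihood test, no covariate), with Benjamini-Hochberg adjustment over all 14370 genes and a threshold of 0.05. SEs and 95% intervals come from that test. Ratios were compared by exact permutation of hearts. Alternatives used DESeq2 1.42.0, limma 3.58.1, other scalings and filters, and each heart left out. Scripts were tested on simulated data. Transcript lengths and gene positions are those of GENCODE M21 (GRCm38), and promoter sequences are from RefSeq (GRCm38.p6).

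The members, lists and tests were chosen with earlier results of these data known. Named genes are the 10 members, their partners, the genes of each list past the threshold and up to 3 further ones by p, and the 5 nearest in pattern. Some genes that the rule names are not reported here. Marker genes, Pfkfb4 and Fbp2 were named outside this rule. Ratios to cardiomyocyte markers, summed exon lengths and list counts under library totals were alternatives chosen after seeing the data.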

Additional observations from a re-analysis of the deposited data

How the results depend on the processing

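With 3 hearts a group the 95% intervals of 7 of the 10 genes include 0, and Slc2a1 rests on 30 to 70 counts a heart. In 14 of 15 alternatives all 10 genes had a lower mean, the exception being Aldoa under library totals. None of the 10 passed in any alternative, with a lowest adjusted p of 0.404 (Pgam2 without R193H replicate 3). The labels give no pairing of hearts, so no paired analysis was made.

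Over all genes, edgeR called 1 gene, DESeq2 42, edgeR without a filter 38 and edgeR without mitochondrial genes 0, while leaving out single hearts gave 3 to 21. The median of the 10 genes was -0.066 under library totals, and -0.21 to -0.14 with single hearts left out. The number of the 10 with separated groups was 0 under library totals, 4 under DESeq2 size factors, and 5 to 7 with single hearts left out, where separation is also commoner among all genes (9.47% to 12.4%). Under library totals Aldoa (0.026), Hk1 (0.067), Pfkl (0.11), Ldha (0.11), Slc2a8 (0.11) and Pkm (0.037) turned sign, as did Slc2a3 in limma-voom (0.098).

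Leaving out single hearts gave ranges across 0 for Pfkl (-0.12 to 0.049), Ldha (-0.095 to 0.042), Slc2a8 (-0.11 to 0.091), Slc2a3 (-0.59 to 0.37) and Eno2 (-0.52 to 0.0088). The same held for the log2 ratios of Slc2a4 to Slc2a1 (-0.084 to 0.52), Pgam2 to Pgam1 (-0.018 to 0.24), Pygm to Pygb (-0.059 to 0.034) and Gys1 to Pygm (-0.062 to 0.052). The causes were not tested.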
